A study of Homo sapiens with 8 samples.

Results

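The 44 genes described here are interferon-stimulated genes, sensors of foreign nucleic acid and the STAT and IRF factors that act around them. The genes were listed by name, but with earlier results of these data known. Of the 44 genes, 43 were in the deposited table of 18216 genes, and 38 passed the filter on low values. That filter asked for a normalized count of 10 or more in 2 or more of the 8 libraries. The remaining listed gene is not analysed here. RNA was measured in IMR90, a line of human lung fibroblasts, at passage 28, cultured with 10% serum in 3% oxygen and 5% carbon dioxide. Polyadenylated RNA came from 4 groups of 2 libraries, namely cells given the solvent DMSO and cells given Nutlin-3a at 3 µg/mL for 6, 9 or 12 h, starting 1 day after seeding at 300K cells per mL. Nutlin-3a occupies the pocket of MDM2 that binds p53 and so stabilises p53. No group received interferon or a virus, and no group lacked p53. The single DMSO group, for which no culture time is given, served all 3 comparisons, so time in Nutlin-3a and time in culture cannot be told apart. Whether the 2 libraries of a group came from separate cultures is not stated, so the p-values capture the spread between these libraries alone, and that spread may be technical. In bulk RNA, fewer expressing cells and less RNA per cell cannot be told apart.

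Type I interferons bind a receptor on the cell surface whose JAK kinases phosphorylate STAT proteins, among them STAT2. With IRF9 these form a complex that binds the interferon-stimulated response element in the promoters of antiviral genes. Upstream of interferon, RIG-I (DDX58) and MDA5 (IFIH1) detect RNA and signal through MAVS, and STING (TMEM173) relays the detection of cytosolic DNA. TLR3 also detects RNA but signals through another adaptor, TICAM1. These routes lead to IRF3 and IRF7. In other human cells TRIM22, IRF9, TLR3 and TAP1 have been described as responsive to p53.

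To show the DNA element by which interferon acts on these genes, promoter windows from 250 bases before to 50 bases after the annotated start were taken from RefSeq (GRCh38.p14). Windows were matched for 31 of the 43 genes, and IRF2, IRF3, IRF7, DHX58, TMEM173, IFIT2, IFITM2, OAS2, OASL, MX2, USP18 and TRIM22 were not matched. The core of the response element was searched on both strands as GAAA, any 2 bases and GAAA. It was found in 23 of the 31 windows (74.2%), against 4.38% of 27305 genes with a window. The gamma-activated site, TTC, any 3 bases and GAA, was found in 10 windows (32.3%, against 9.38% of all genes). The half-site consensus of p53 was found in 4 windows (12.9%, against 8.06%), those of DDX58, IFIT3, ISG15 and TRIM21. Of the 31 genes with a window, 14 rose or fell in any comparison with DMSO. The core was found in 10 of these 14, beside 23 of all 31 (74.2%). The core with 5 bases on each side is printed for 4 genes whose RNA changed in different ways (below), as ISG15 and B2M rose at some times, IFIT1 fell at 6 h and MX1 was not called. It is read on the strand of the gene except for IFIT1, where it lies on the opposite strand, and capitals mark the core.
ISG15: ctcggGAAAGGGAAAccgaa
MX1: gaaatGAAACCGAAActgaa
B2M: tctaaGAAAAGGAAActgaa
IFIT1: aagggGAAAGTGAAActaaa
They lie at chr1:1013379-1013398, chr21:41420564-41420583, chr15:44711368-44711387 and chr10:89392502-89392521. A match of letters is a description and does not show binding.

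The whole windows of OAS3, TRIM21, STAT2 and PARP12 are shown because these genes had the smallest p-values over the 4 groups (limma F test) among those with a window. They are written on the strand of the gene, with every match in capitals.
OAS3: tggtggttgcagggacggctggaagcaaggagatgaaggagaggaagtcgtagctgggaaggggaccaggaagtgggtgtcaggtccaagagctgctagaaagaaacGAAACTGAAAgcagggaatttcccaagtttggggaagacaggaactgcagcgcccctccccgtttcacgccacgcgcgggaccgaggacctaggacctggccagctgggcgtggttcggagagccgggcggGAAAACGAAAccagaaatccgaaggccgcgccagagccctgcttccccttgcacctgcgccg
TRIM21: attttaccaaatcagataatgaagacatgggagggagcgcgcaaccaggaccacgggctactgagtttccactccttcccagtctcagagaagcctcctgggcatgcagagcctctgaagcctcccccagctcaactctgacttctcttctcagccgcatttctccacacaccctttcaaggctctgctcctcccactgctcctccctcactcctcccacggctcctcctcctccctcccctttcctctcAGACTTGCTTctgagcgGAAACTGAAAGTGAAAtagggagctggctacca
STAT2: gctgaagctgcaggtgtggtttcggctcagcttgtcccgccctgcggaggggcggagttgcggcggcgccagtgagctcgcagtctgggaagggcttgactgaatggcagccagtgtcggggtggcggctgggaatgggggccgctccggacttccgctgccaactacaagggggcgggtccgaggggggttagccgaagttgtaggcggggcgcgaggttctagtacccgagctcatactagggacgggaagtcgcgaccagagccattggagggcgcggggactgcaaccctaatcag
PARP12: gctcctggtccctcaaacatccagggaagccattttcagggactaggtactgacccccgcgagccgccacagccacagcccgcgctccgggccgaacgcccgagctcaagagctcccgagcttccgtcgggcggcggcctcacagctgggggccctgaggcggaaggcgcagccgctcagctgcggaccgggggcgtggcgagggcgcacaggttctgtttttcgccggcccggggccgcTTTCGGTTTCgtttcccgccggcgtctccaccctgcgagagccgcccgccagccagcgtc
The windows lie at chr12:112938224-112938523 on the plus strand (OAS3), and on the minus strand at chr11:4393653-4393952 (TRIM21), chr12:56360058-56360357 (STAT2) and chr7:140062902-140063201 (PARP12). OAS3 held 2 cores, which begin 143 and 12 bases before the start. TRIM21 held 2 overlapping cores after its start and a p53 half-site at the start itself, PARP12 held 1 core on the opposite strand, and the STAT2 window held none of these letters.

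Libraries held 21.9 to 33.6 M (1e6) reads in genes, and 3 reads, taken as the floor, equal a normalized count of 2.46 to 3.75, which covers counting error only. The 43 genes took 0.130 to 0.143% of gene reads, and B2M alone 38.0 to 40.7% of that. All 11 fibroblast markers were in the table and tested, and their summed normalized counts, mostly collagen, were 0.930 to 0.937 M in DMSO, 0.901 to 0.910 at 6 h, 1.07 to 1.08 at 9 h and 1.11 to 1.13 at 12 h. Of 9 immune markers 5 were in the table and 1 was tested, CSF1R, the receptor of a macrophage growth factor, which rose at 6 h (38.3 ± 2.48 at 6 h against 16.1 ± 9.06 in DMSO, SD, n = 2 each). That call was lost without DMSO replicate 2 (log2 change 0.74), and without DMSO replicate 1 CSF1R was also called higher at 9 h (1.19) and 12 h (1.23). The summed immune markers ranged over 21.5 to 33.2 in DMSO, 52.9 to 53.8 at 6 h, 32.9 to 34.9 at 9 h and 32.3 to 42.6 at 12 h. Of 6 epithelial markers 3 were in the table, with sums of 273 to 289 in DMSO, 307 to 328 at 6 h, 332 to 362 at 9 h and 359 to 393 at 12 h, mostly from CLDN4, while CDH1 averaged 1.34 to 2.84 over the groups. Of 6 endothelial markers 4 were in the table, with sums of 1967 to 2071 in DMSO, 1864 to 1985 at 6 h, 1576 to 1677 at 9 h and 1433 to 1503 at 12 h, mostly from TEK, while CDH5 averaged 0.961 to 4.31. The part of any of these markers in the changes below was not tested.

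Nutlin-3a did not move these genes in 1 direction. A gene is said to have risen or fallen when its limma p-value, adjusted over all 14074 tested genes, was under 0.05. At 6 h, 6 of the 38 tested genes rose and 7 fell (15.8 and 18.4%), beside 16.1 and 20.6% of all tested genes. At 9 h, 6 rose and 5 fell (15.8 and 13.2%), beside 16.2 and 19.1%. At 12 h, 6 rose and 5 fell (15.8 and 13.2%), beside 18.5 and 21.4%. These shares lie near or below the background. The median log2 change was 0.14, 0.04 and 0.03 at 6, 9 and 12 h, against −0.01, 0.01 and 0.01 over all tested genes. In all, 18 genes passed the test at 1 or more times (47.4%, beside 54.9% of all tested genes) and 20 at none. TRIM22, TRIM21 and IRF9 rose at all 3 times, and OAS3, IRF1 and IRF2 fell at all 3. Among these calls, changes of at least 2-fold were those of TRIM22, higher at each time, and OAS3, lower at 12 h. Lack of overlap with the DMSO pair, given below for single genes, was common. At 9 h, both libraries lay above both DMSO libraries for 16 of the 38 genes and below them for 10. Among all tested genes this held for 32.2 and 31.9%. At 12 h it held for 12 and 8 of the 38 genes, beside 33.6 and 33.5% of all tested genes. Such separation is therefore weak evidence for a single gene.

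These counts moved with the normalization and with single libraries. After quantile normalization 5, 7 and 7 genes rose and 5, 3 and 3 fell at 6, 9 and 12 h, and the share of risen genes among all genes called at 12 h was 57.6%, against 46.4% with the size factors of the authors. By the authors' deposited tables, 4, 5 and 4 rose and 4, 3 and 3 fell. At 6 h 10 genes rose without DMSO replicate 1, and 4 fell without 6 h replicate 2. At 9 h 2 genes fell without 9 h replicate 2, and 3 without DMSO replicate 1, 9 h replicate 1 or either 12 h library. Without 12 h replicate 2, 3 rose and 2 fell at 12 h, and without 12 h replicate 1, 3 fell.

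**Figure D1:**
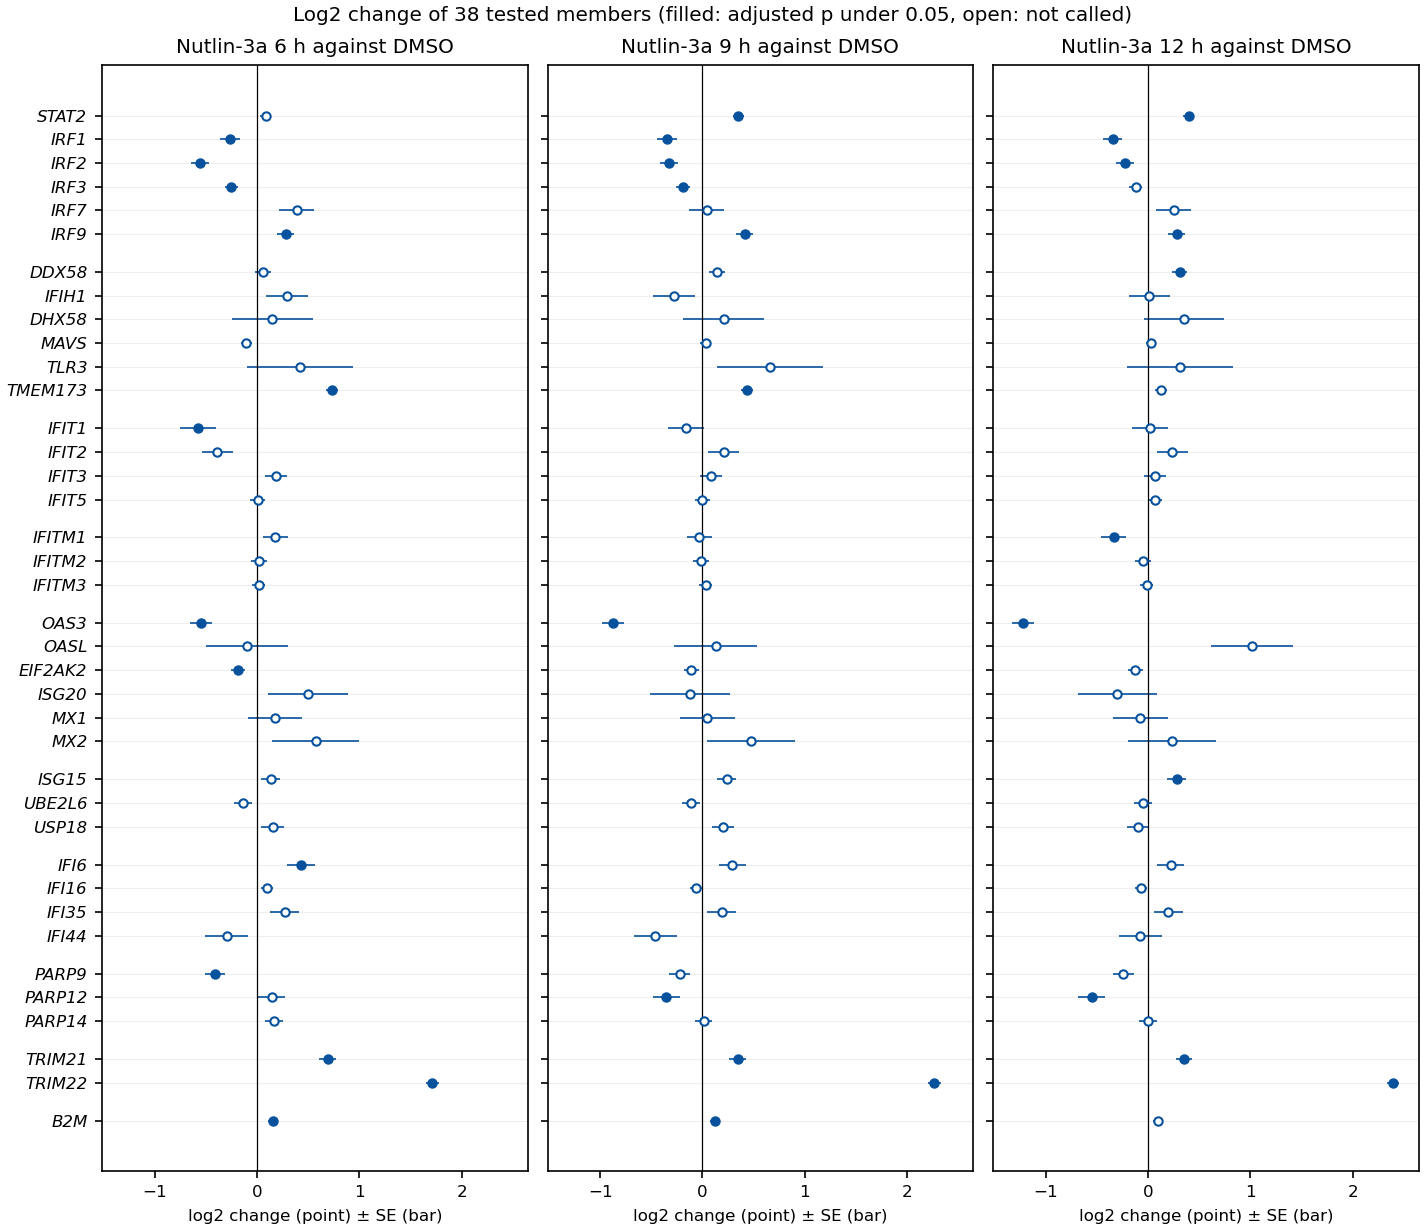
Log2 change against DMSO (x axis, point with a bar of ± SE) of each of the 38 tested genes (y axis, grouped by role) after 6, 9 and 12 h of Nutlin-3a. TRIM22 stands to the right of all others at each time, OAS3 moves further left from 6 to 12 h, and most points lie within 0.5 of 0.

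Among the transcription factors, STAT2 and IRF9 of the interferon complex rose and 3 interferon regulatory factors fell. These were 5 of the 6 tested (83.3%, beside 54.9% of all tested genes). STAT2, the subunit that activates transcription, had normalized counts of 1658 and 1661 in DMSO, 1736 and 1782 at 6 h, 2117 and 2118 at 9 h, and 2304 and 2072 at 12 h. The 9 and 12 h libraries all lay above those of DMSO and 6 h. STAT2 had a log2 change of 0.08 ± 0.06 at 6 h and rose by 0.35 ± 0.06 at 9 h and 0.40 ± 0.06 at 12 h (1.32-fold, limma adjusted p = 9.92e-06). IRF9, the DNA-binding subunit, had 495 and 409 in DMSO, 562 and 531 at 6 h, 589 and 608 at 9 h, and 552 and 542 at 12 h. It was higher in every Nutlin-3a library than in either DMSO library, and rose by 0.28 ± 0.09, 0.41 ± 0.09 and 0.28 ± 0.09. The IRF9 calls at 6 and 12 h rest on few libraries. Without DMSO replicate 2 its changes were 0.14 and 0.15 and were not called. The 6 h call was also lost without 6 h replicate 1 (0.24), with DESeq2 and in the authors' deposited table, and the 12 h call without either 12 h library (0.27 and 0.30) and in that table. In the annotation, 48.4% of the exon bases of IRF9 are shared with another gene model on its strand, so its count is uncertain.

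IRF2, which competes with IRF1 for the same sites, had 488 and 423 in DMSO, 311 and 306 at 6 h, 371 and 354 at 9 h, and 400 and 377 at 12 h. It was lowest at 6 h and closer to DMSO afterwards, with log2 changes of −0.56 ± 0.09, −0.32 ± 0.09 and −0.23 ± 0.09. The 6 h call held in every alternative run, the 9 h call was lost without DMSO replicate 1 (−0.22) or 9 h replicate 2 (−0.29), and the 12 h call was lost in 16 of 20 alternatives (adjusted p up to 0.36), among them the omission of DMSO replicate 1 (−0.12). IRF1, an activator induced by interferon gamma, had 391 and 372 in DMSO, 320 and 314 at 6 h, 283 and 318 at 9 h, and 318 and 283 at 12 h. All Nutlin-3a libraries lay below DMSO, with log2 changes of −0.26 ± 0.09, −0.35 ± 0.09 and −0.34 ± 0.09. The 6 h call of IRF1 was lost in 8 alternatives, among them without DMSO replicate 1 (−0.23), 6 h replicate 1 (−0.28) or 6 h replicate 2 (−0.25), the 9 h call without 9 h replicate 1 (−0.26), and the 12 h call without 12 h replicate 2 (−0.26). An RNA gene on the opposite strand shares 22% of its exon bases, and the strand setting of the counting is not given.

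IRF3, the factor that STING and MAVS activate, is named here after its values were seen. It had 844 and 803 in DMSO, 698 and 687 at 6 h, 704 and 742 at 9 h, and 763 and 752 at 12 h. Every Nutlin-3a library lay below DMSO, with changes of −0.25 ± 0.07 and −0.19 ± 0.07 that passed the test at 6 and 9 h, and −0.12 ± 0.07 at 12 h, which did not. The 9 h call was lost in 10 of 20 alternatives, including without DMSO replicate 1 (−0.15), 9 h replicate 1 (−0.15) or 9 h replicate 2 (−0.23). A protein-coding gene on the opposite strand shares 19.3% of the exon bases of IRF3, and the strand setting of the counting is not given. IRF7, the factor that amplifies interferon production, ranged over 61.2 to 99.0 and passed the test at no time.

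Of 6 sensors and adaptors, 2 changed (33.3%, beside 54.9% of all tested genes), and the larger change was that of STING. TMEM173, the gene of STING, had 941 and 979 in DMSO, 1596 and 1603 at 6 h, 1326 and 1266 at 9 h, and 1045 and 1055 at 12 h. The 6 h libraries were highest and the 12 h libraries close to DMSO. TMEM173 rose by 0.74 ± 0.06 at 6 h (1.67-fold, limma adjusted p = 3.7e-09) and 0.43 ± 0.06 at 9 h, and had 0.13 ± 0.06 at 12 h, which was called only with TMM scaling (0.15), quantile normalization (0.22), edgeR (0.15) or without DMSO replicate 2 (0.16). DDX58, the gene of RIG-I, had 633 and 676 at 12 h, against 502 and 555 in DMSO, with 568 and 534 at 6 h and 599 and 568 at 9 h. It rose at 12 h by 0.31 ± 0.08, a call lost without 12 h replicate 2 (0.26), and at 9 h (0.14 ± 0.08) it was called with quantile normalization (0.21) or without DMSO replicate 2 (0.22). MAVS, the mitochondrial adaptor of RIG-I and MDA5 and the most highly counted gene of the group, had 2553 and 2448 in DMSO, 2324 and 2329 at 6 h, 2565 and 2545 at 9 h, and 2609 and 2504 at 12 h. It passed no test against DMSO with all libraries in the fit, and was called lower at 6 h when DMSO replicate 2 was left out (−0.13). IFIH1 (34.9 to 57.5), DHX58, a helicase related to RIG-I (10.6 to 21.9), and TLR3 (4.30 to 14.4) were low in all libraries and were not called.

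**Figure D2:**
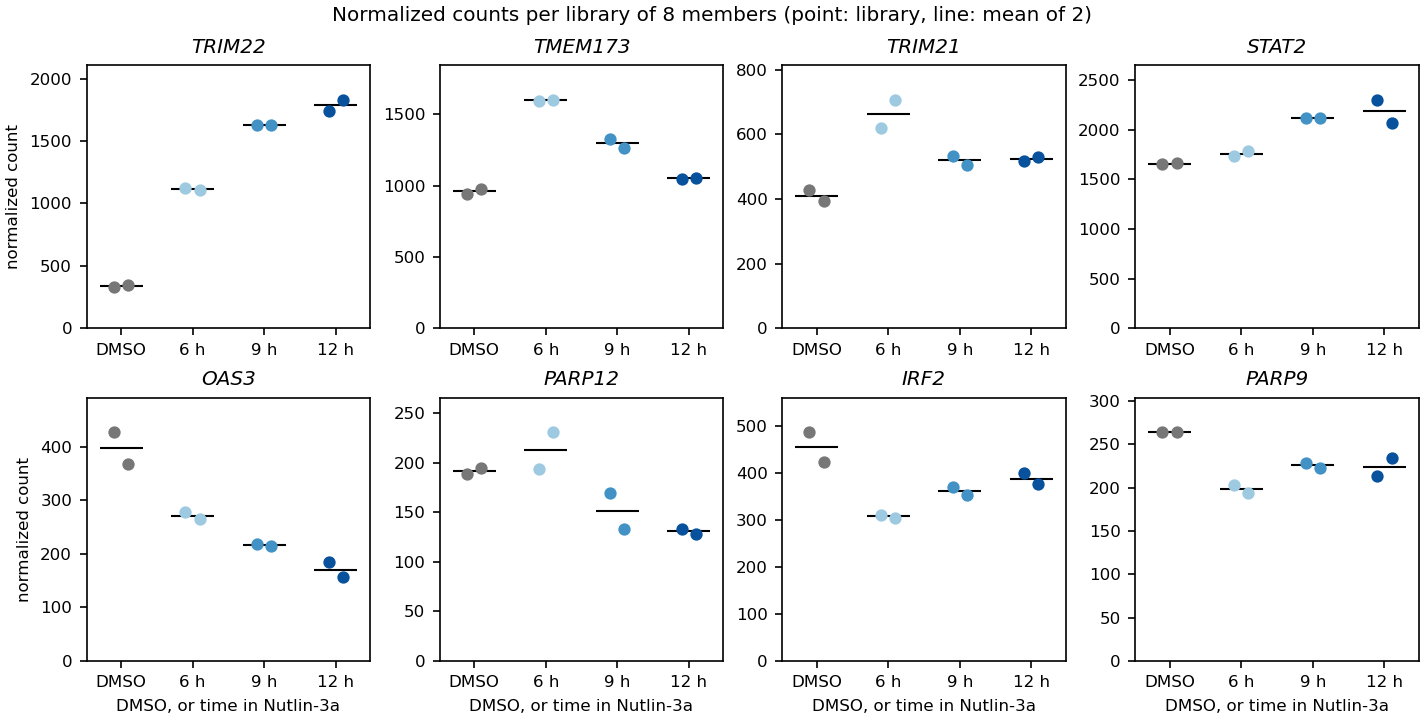
Normalized count (y axis, from 0) in each library (point) and its mean over 2 libraries (line) in DMSO and after 6, 9 and 12 h of Nutlin-3a (x axis) for 8 genes. TRIM22 and STAT2 are highest at 12 h, TMEM173 and TRIM21 at 6 h, OAS3 and PARP12 are lowest at 12 h, and IRF2 and PARP9 are lowest at 6 h.

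The IFIT genes encode proteins that bind viral RNA. IFIT1, which recognises RNA lacking cap methylation, had 77.5 and 70.1 at 6 h, against 108 and 114 in DMSO. Both 6 h libraries lay below DMSO, whereas at 9 h (86.6 and 112) and at 12 h (93.3 and 135) the values overlapped with DMSO. IFIT1 fell by 0.58 ± 0.18 at 6 h, a call lost without 6 h replicate 2 (−0.51), with DESeq2 and in the authors' deposited table. IFIT2 had 78.8 and 82.6 at 6 h, against 108 and 104 in DMSO, and its change of −0.39 ± 0.15 just missed the test. With a mean of at least 50, or without either 12 h library, that change (−0.39 each time) was called. IFIT5, the most highly counted of the family, was even across the study (796 and 832 in DMSO, 857 and 778 at 6 h, 788 and 840 at 9 h, 835 and 872 at 12 h), and IFIT3 ranged over 233 to 295. Neither was called at any time.

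The IFITM genes encode membrane proteins that hinder virus entry. IFITM1 had 266 and 285 at 12 h, against 385 and 314 in DMSO, with 336 and 459 at 6 h and 332 and 349 at 9 h. The 12 h libraries were the lowest, and IFITM1 fell by 0.33 ± 0.12 at 12 h, a call lost without DMSO replicate 1 (−0.19), 12 h replicate 1 (−0.28) or 12 h replicate 2 (−0.38), with quantile normalization, with DESeq2 and in the authors' deposited table. The DMSO and 6 h pairs were wide, and without DMSO replicate 1 (0.32) or 6 h replicate 1 (0.40) IFITM1 was called higher at 6 h. IFITM3, the most highly counted of the family, had 4038 and 3429 in DMSO, 3656 and 3871 at 6 h, 3763 and 3847 at 9 h, and 3744 and 3639 at 12 h, and its groups overlapped at each time. It was called higher at 6 h (0.13) and 9 h (0.15) without DMSO replicate 1, and lower at 12 h (−0.13) without DMSO replicate 2. IFITM2 ranged over 1508 to 1798 with no call. These 3 genes are close in sequence, and IFITM1 shares 32.5% of its exon bases with IFITM2 in the annotation, so their reads could be divided between them. An RNA gene on the opposite strand shares 21.3% of the exon bases of IFITM3. BST2, or tetherin, which holds virions at the cell surface, stayed at or below the floor with values of 0 to 2.93.

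The largest decrease among the 38 genes was that of OAS3. OAS enzymes sense double-stranded RNA and make the messenger that activates RNase L. OAS3 had 427 and 367 in DMSO, 278 and 264 at 6 h, 218 and 214 at 9 h, and 185 and 156 at 12 h. Each pair lay below that of the time before, and no groups overlapped. OAS3 fell at each time, with log2 changes of −0.55 ± 0.11, −0.87 ± 0.11 and −1.22 ± 0.11 and a 12 h level 0.43-fold that of DMSO (limma adjusted p = 1.15e-08), and each call held in every alternative run. Its promoter, shown above, held 2 cores of the response element. OAS2 was at or below a value of 3.98 in every library and was not tested.

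OASL, an OAS-like protein that acts with RIG-I, had 20.5 and 18.7 at 12 h, against 9.77 and 8.59 in DMSO. It passed the filter only through values of 9 and 12 h libraries, so the filter itself favours a difference. Its change of 1.02 ± 0.40 at 12 h missed the test (limma adjusted p = 0.0518), and was called with TMM scaling (1.03), a pseudocount of 5 (0.79), edgeR (1.11), only the 2 groups compared, or without 6 h replicate 1 (1.02 both). EIF2AK2, the gene of the kinase PKR, which stops translation on double-stranded RNA, had 1222 and 1034 at 6 h, against 1234 and 1325 in DMSO. Its 6 h decrease of −0.19 ± 0.07 was lost in 15 of 20 alternatives, with a change of −0.06 without 6 h replicate 2 and −0.13 without DMSO replicate 2, and in the fit with a replicate block (−0.19). EIF2AK2 had 1168 and 1206 at 9 h and 1183 and 1166 at 12 h, and without DMSO replicate 1 its 12 h change was called (−0.17). MX1 (29.01 to 48.8) and MX2 (7.37 to 17.7), GTPases that block viral nucleocapsids, and ISG20, an exonuclease (12.5 to 32.5), were low and not called.

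ISG15 is a ubiquitin-like protein that UBE2L6 helps attach to targets and USP18 removes. ISG15 had 393 and 410 in DMSO, 395 and 493 at 6 h, 482 and 464 at 9 h, and 499 and 477 at 12 h. The 9 and 12 h libraries lay above DMSO, and the gene rose by 0.28 ± 0.09 at 12 h, while 0.24 ± 0.09 at 9 h missed the test. The 12 h call was lost without 12 h replicate 1 (0.25) or 12 h replicate 2 (0.31), with DESeq2 and in the authors' deposited table. The 9 h change was called in 7 alternatives, among them without DMSO replicate 2 (0.27) or either 6 h library (0.24 each), and the 6 h change of 0.14 was called without 6 h replicate 1 (0.30). UBE2L6 (365 to 430) and USP18 (233 to 309) were not called.

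Of the genes named for their induction by interferon, IFI6, which limits flavivirus replication, had 190 and 205 at 6 h, against 125 and 171 in DMSO. It rose at 6 h by 0.43 ± 0.13, a call lost without DMSO replicate 1 (0.21) or 6 h replicate 2 (0.38), with DESeq2 and in the authors' deposited table. At 9 h IFI6 had 181 and 177 and at 12 h 179 and 162, which were called higher without DMSO replicate 2 (0.52 and 0.44). The result for IFI6 turned on which DMSO library was kept. IFI16, a DNA sensor of the nucleus and the most highly counted of this group, had 1915 and 1828 in DMSO, 2005 and 1997 at 6 h, 1738 and 1839 at 9 h, and 1716 and 1864 at 12 h, with no call against DMSO. IFI35 ranged over 101 to 132 and IFI44 over 42.3 to 67.9 with no call. IFI27 (4.09 to 9.77) and IFI44L (1.25 to 9.37) fell short of the filter.

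PARP9, PARP12 and PARP14 are interferon-induced members of the ADP-ribosyltransferase family. PARP12, which restricts alphaviruses, had 189 and 194 in DMSO, 194 and 231 at 6 h, 169 and 132 at 9 h, and 133 and 128 at 12 h. It was level with or above DMSO at 6 h and lowest at 12 h. PARP12 fell at 12 h, with a change of −0.55 ± 0.13 (limma adjusted p = 0.00207), a call that held in every alternative run, and at 9 h, with −0.35 ± 0.13, a call lost in 11 of 20 alternatives, with −0.18 without 9 h replicate 2, −0.33 without DMSO replicate 2 and −0.35 without either 12 h library. PARP9, a partner of the ubiquitin ligase DTX3L, had 264 in each DMSO library, 203 and 194 at 6 h, 229 and 223 at 9 h, and 214 and 234 at 12 h. All Nutlin-3a libraries lay below DMSO, and PARP9 fell at 6 h, with a change of −0.41 ± 0.10, which held in every alternative run. Its changes of −0.22 ± 0.10 and −0.24 ± 0.10 at 9 and 12 h missed the test. PARP14, the most highly counted of the family, had 513 and 463 in DMSO, 593 and 504 at 6 h, 491 and 491 at 9 h, and 505 and 469 at 12 h. It passed no test against DMSO with all libraries in the fit, and was called higher at 6 h when DMSO replicate 1 (0.24) or 6 h replicate 2 (0.28) was left out.

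The largest change of all 38 genes was that of TRIM22, a ubiquitin ligase that restricts retroviruses and influenza virus. TRIM22 had 328 and 349 in DMSO, 1121 and 1105 at 6 h, 1631 and 1632 at 9 h, and 1741 and 1832 at 12 h. Each pair lay above that of the time before, with no overlap. It rose by 1.71 ± 0.06, 2.27 ± 0.06 and 2.40 ± 0.06 (3.28, 4.81 and 5.26-fold, limma adjusted p = 2.75e-17 at 12 h), and every alternative run kept these calls. A same-strand olfactory receptor gene shares 10.7% of its exon bases. TRIM21, a cytosolic antibody receptor and ubiquitin ligase, had 427 and 394 in DMSO, 620 and 708 at 6 h, 535 and 507 at 9 h, and 517 and 531 at 12 h. Its 6 h libraries were highest, and all Nutlin-3a libraries lay above DMSO. TRIM21 rose by 0.69 ± 0.08, 0.34 ± 0.08 and 0.35 ± 0.08, and these calls also held in every alternative run.

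B2M, the light chain of MHC class I, had 13683 and 14368 in DMSO, 15645 and 15550 at 6 h, 14696 and 15794 at 9 h, and 14872 and 15125 at 12 h. All Nutlin-3a libraries lay above DMSO, but by little. B2M rose at 6 h (0.15 ± 0.05) and at 9 h (0.12 ± 0.05), and had 0.10 ± 0.05 at 12 h, not called unless DMSO replicate 2 was left out (0.13) or TMM scaling or edgeR was used (0.12 each). Its 6 h call was lost without 6 h replicate 1 (0.15) or 6 h replicate 2 (0.16), with only the 2 groups compared and with quantile normalization (0.10), and the 9 h call in 12 of 20 alternatives, among them without DMSO replicate 1 (0.08), 9 h replicate 2 (0.07), either 6 h library or either 12 h library (0.12 each). TAP1, a subunit of the peptide transporter that loads class I, had 0 to 3.27 as counted with gene models that are not given, and was not tested.

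Setting 12 h against 6 h of Nutlin-3a compares exposure times without the shared DMSO libraries. Of the 38 genes, 8 were higher at 12 h and 6 lower (21.1 and 15.8%), beside 14.4 and 17.1% of all tested genes, with a median of −0.06 against −0.00. TRIM22 (0.68 ± 0.06) and STAT2 (0.31 ± 0.06) were higher at 12 h than at 6 h, and TMEM173 (−0.61 ± 0.06), OAS3 (−0.67 ± 0.11) and PARP12 (−0.69 ± 0.13) were lower. These 5 differences held in every alternative run. IFIT1 (114 ± 29.7 at 12 h against 73.8 ± 5.23 at 6 h, SD, n = 2 each) and IFIT2 (126 ± 23.3 against 80.7 ± 2.71) were higher at 12 h by 0.60 ± 0.18 and 0.63 ± 0.15. Without 12 h replicate 2 they were not called (0.34 and 0.44), and IFIT1 was also lost without 6 h replicate 2 (0.53) and with DESeq2. OASL was higher by 1.12 ± 0.40, which was lost without either 6 h library (0.96 and 1.27) or either 12 h library (1.05 and 1.18). DESeq2 gave no adjusted p for OASL.

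The other differences between 12 and 6 h were smaller. IRF2 was higher by 0.33 ± 0.09, lost without 6 h replicate 2 (0.32) or 12 h replicate 1 (0.29). DDX58 was higher by 0.25 ± 0.08, lost without 6 h replicate 2 or 12 h replicate 2 (0.20 each) and with DESeq2. MAVS was higher by 0.14 ± 0.05 and IFI16 lower (−0.16 ± 0.06), each lost in 8 of 19 alternatives, among them without any of the 6 and 9 h libraries (0.13 to 0.14 for MAVS, −0.16 for IFI16) or without 12 h replicate 1 (0.11 and −0.10), and MAVS also without 12 h replicate 2 (0.17). TRIM21 (−0.34 ± 0.08) and IFITM1 (−0.51 ± 0.12) were lower, and both were lost without 6 h replicate 2 (−0.24 and −0.29). Without 6 h replicate 2, ISG15 (0.30) was called higher and PARP14 (−0.28) lower at 12 h than at 6 h. The number of genes that were higher was 3 without 12 h replicate 2, 4 without 6 h replicate 2 and with DESeq2, and 5 without 12 h replicate 1.

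**Figure D3:**
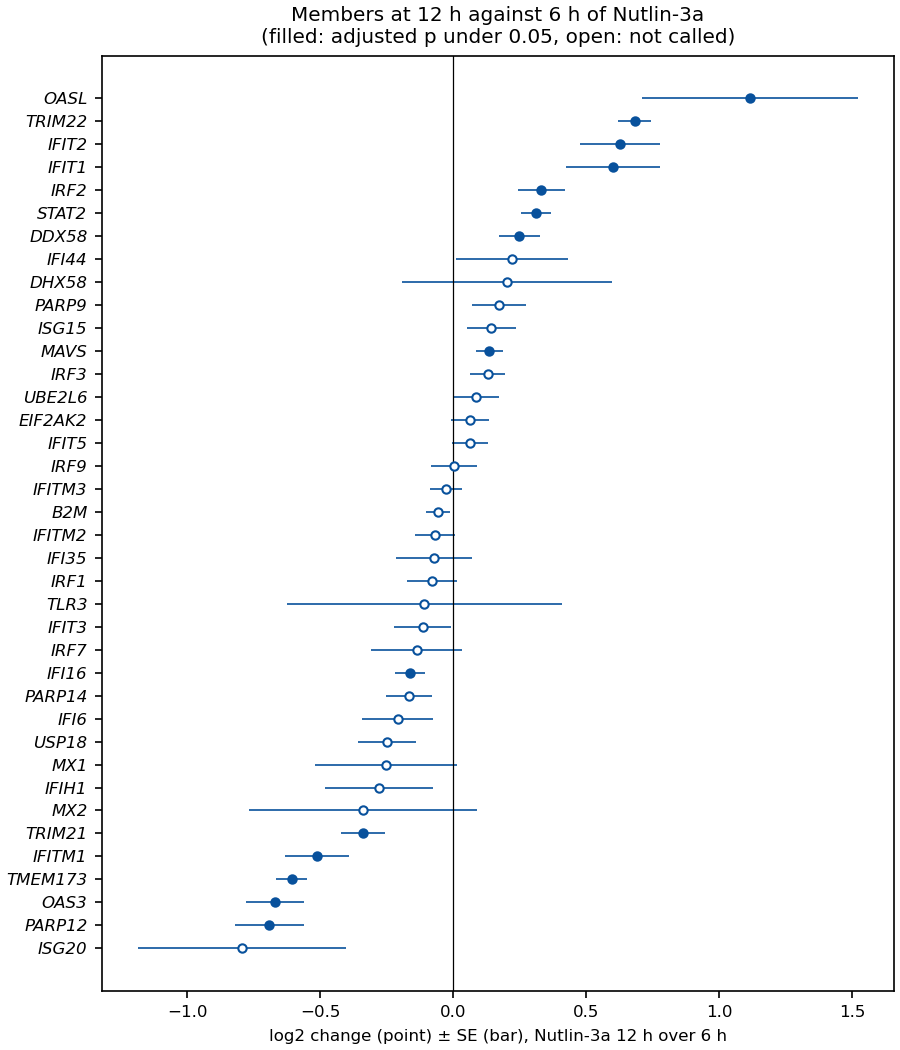
Log2 change of 12 h over 6 h of Nutlin-3a (x axis, point with a bar of ± SE) for the 38 tested genes (y axis), sorted by size, with filled points for genes that passed the test. OASL, with the widest bar of the filled points, and TRIM22 stand at the top, and TMEM173, OAS3 and PARP12 near the bottom.

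Levels of different genes can be compared only per length. The length used was the union of all annotated exons of a gene (GENCODE release 29, which may differ from the annotation of the authors). This union can exceed the length of the RNA present, so the order below depends on it. B2M was given 6079 bases and IFITM3 1348. Before division by length, B2M had 13683 and 14368 in DMSO and IFITM3 4038 and 3429. Per kb of exon, the DMSO libraries had the highest level for IFITM3 (2995 and 2544), followed by B2M (2251 and 2364) and IFITM2 (1166 and 978). Next came ISG15 (418 and 436), IFI16 (362 and 345) and IFITM1 (357 and 290). IFI16 and IFITM1 did not differ beyond their spread. TRIM22 had 54.6 and 58.0 per kb, rank 21 of 43, above IFI35 (51.0 and 51.2), IRF1 (50.1 and 47.7) and OAS3 (51.8 and 44.5). The values of OAS3 spanned those of IFI35 and IRF1, which did not overlap each other. IFIH1 (8.42 and 8.83) headed a tail of 12 genes under 10 per kb that ended with TAP1 (0.203 and 0).

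**Figure D4:**
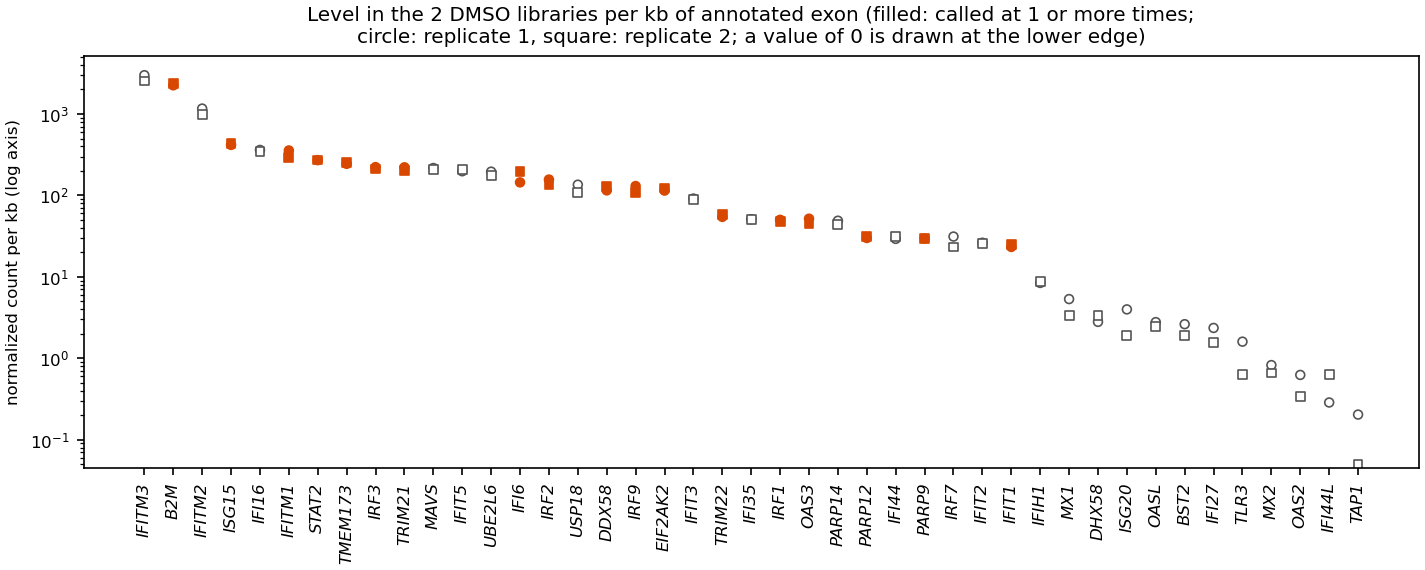
Level in the DMSO libraries as normalized count per kb of exon (y axis, log scale, circle for replicate 1 and square for replicate 2) of 43 genes (x axis, from highest to lowest), with filled symbols for genes called against DMSO at 1 or more times. Filled symbols reach from B2M down to IFIT1, and open symbols include genes that were not tested. None of the 12 genes under 10 per kb was called, but BST2, IFI27, OAS2, IFI44L and TAP1 among them were not tested.

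Around these genes, 123 further genes of the pathway were listed, of which 105 were in the table and 88 were tested. At 6, 9 and 12 h, 22, 21 and 30 of them rose (25.0, 23.9 and 34.1%, beside 16.1, 16.2 and 18.5% of all tested genes) and 15, 13 and 16 fell (17.0, 14.8 and 18.2%, beside 20.6, 19.1 and 21.4%), with medians of 0.07, 0.10 and 0.09. After quantile normalization 22, 26 and 31 rose and 13, 8 and 12 fell. Fewer fell at 9 h without 9 h replicate 2 (6), and fewer rose at 12 h without 12 h replicate 1 (19). Among interferons 2 of 9 were in the table. IFNE, an epithelial type I interferon, had 67.9 and 76.0 at 12 h, against 34.2 and 32.2 in DMSO, and rose by 1.09 ± 0.21, whereas IFNA1 lay at 3.12 to 7.52. The 12 h libraries of IFNE were the highest of the study.

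Of 8 receptor and kinase genes tested, 2, 1 and 1 rose (25, 12.5 and 12.5%) and 2, 2 and 1 fell (25, 25 and 12.5%). Over all tested genes, 16.1, 16.2 and 18.5% rose and 20.6, 19.1 and 21.4% fell. IL10RB, a receptor chain of interferon lambda, rose by 0.27, 0.33 and 0.36 at 6, 9 and 12 h (6 h not without 6 h replicate 2, 0.21). JAK1 rose at 6 h by 0.17 (not without 6 h replicate 1, 0.15) and was called lower at 12 h only without DMSO replicate 2 (−0.16), and the kinase TYK2 fell at 6 h (−0.32) and at 9 h (−0.20, not without DMSO replicate 1, −0.13, or 9 h replicate 2, −0.15). Without DMSO replicate 2 TYK2 was called lower at 12 h too (−0.20). Of 8 other STAT and IRF genes, 3, 3 and 4 rose (37.5, 37.5 and 50%) and 2, 2 and 2 fell (25% each). STAT4, which rose at 12 h from 4.89 and 5.37 in DMSO, passed the filter only through Nutlin-3a libraries, so the filter itself favours a rise. STAT3, which transmits signals of the IL-6 family, rose by 0.40, 0.55 and 0.46, STAT6, which transmits those of IL-4, by 0.26, 0.27 and 0.21, and IRF2BP2, a corepressor that binds IRF2, by 0.30, 0.17 and 0.18 (9 h not without DMSO replicate 1, 0.11, or either 9 h library, 0.17 and 0.16, and 12 h not without DMSO replicate 1, 0.12, or 12 h replicate 2, 0.17).

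Of 9 signal relays 2, 2 and 1 rose (22.2, 22.2 and 11.1%) and 1, 1 and 2 fell (11.1, 11.1 and 22.2%). Among all tested genes, 16.1, 16.2 and 18.5% rose and 20.6, 19.1 and 21.4% fell. TRAF3, an adaptor downstream of MAVS, fell at each time (−0.26, −0.22 and −0.33, with 9 h not called without 9 h replicate 2, −0.20), while TRAF6 rose by 0.31 and 0.30 at 6 and 9 h and had 0.17 at 12 h, called in 6 alternatives, among them without DMSO replicate 1 (0.22). The kinase TBK1 rose by 0.20, 0.22 and 0.30 (6 h not without DMSO replicate 1, 0.12, or either 6 h library, 0.21 and 0.20, and 9 h not without DMSO replicate 1, 0.14, or 9 h replicate 2, 0.17). Of 9 negative regulators 1, 3 and 3 rose (11.1, 33.3 and 33.3%) and 2, 1 and 2 fell (22.2, 11.1 and 22.2%). TRIM38, which restrains TLR and RIG-I signalling, rose by 0.49, 0.45 and 0.46, and PIAS1, a SUMO ligase that restrains STAT signalling, fell at each time (−0.27, −0.27 and −0.35, with 6 h not called without 6 h replicate 2 and 9 h not without 9 h replicate 2, −0.22 each). CYLD, a deubiquitinase, had −0.05 at 6 h and rose by 0.16 and 0.22, the 9 h call being lost in 9 alternatives, among them without DMSO replicate 1 (0.12), 9 h replicate 1 (0.18), 9 h replicate 2 (0.15) or either 12 h library (0.16).

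Of 40 further interferon-stimulated genes 11, 8 and 14 rose (27.5, 20.0 and 35.0%, beside 16.1, 16.2 and 18.5% of all tested genes) and 8, 7 and 9 fell (20.0, 17.5 and 22.5%, near the 20.6, 19.1 and 21.4% of all tested genes). ETV7, which rose at 6 and 12 h from 1.95 and 2.15 in DMSO, passed the filter only through 6 and 12 h libraries. The filter itself favours such a rise. SLFN11, a restriction factor that also sensitises cells to DNA damage, had 1794 and 1879 in DMSO, 728 and 762 at 6 h, 1034 and 951 at 9 h, and 1116 and 1077 at 12 h. It fell at each time, with log2 changes of −1.30 ± 0.06, −0.89 ± 0.06 and −0.74 ± 0.06, most at 6 h. PLSCR1, a phospholipid scramblase, fell further with time (−0.49, −0.78 and −0.98), and TRIM5, a capsid-binding restriction factor, rose by 0.23, 0.53 and 0.60 (6 h not without 6 h replicate 1, 0.21). Of 13 further antigen presentation genes 3, 4 and 6 rose (23.1, 30.8 and 46.2%, beside 16.1, 16.2 and 18.5% of all tested genes). Beside 20.6, 19.1 and 21.4% of all tested genes that fell, 0 of the 13 fell at each time by limma, edgeR, DESeq2 or the authors' deposited tables, nor did any fall at an unadjusted limma p under 0.05 (0 at each time). HLA-C rose by 0.23, 0.27 and 0.24, and ERAP2, which trims peptides, by 0.29, 0.29 and 0.30. CALR, a chaperone of class I, had 0.02 at 6 h and rose by 0.20 at 9 and at 12 h.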

How the data were processed

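Per the labels, polyadenylated RNA of IMR90 cells was sequenced from strand-marking libraries, and per the submitters' processing notes STAR, DESeq2 and the build hg19 were used, while not given in the sources used here were the program that counted reads, whether it used strand, and its gene models. The deposited table holds counts per gene after division by 1 size factor per library, a normalized signal made by the authors and called normalized count in the text. Every value came out as a whole number of reads within 1e-06 (100% in each library). Rows that name no gene (28.2 to 29.1% of each total) were left out. The authors also deposited DESeq2 tables with log2 fold changes (DMSO over Nutlin-3a, sign turned here), a Wald score and p-values.

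Changes were tested with limma 3.58.1 (R 4.3.3) with an intensity trend on log2(normalized count + 1) in 1 fit of 8 libraries and 4 groups (4 residual and 15.55 prior degrees of freedom), so low genes have understated changes. P-values were adjusted by Benjamini-Hochberg over 14074 genes. An exact permutation test of 2 against 2 libraries cannot go below 0.333. A value with ± is a log2 change with its SE unless SD is named. Reads were also tested with edgeR 4.0.16 and DESeq2 1.42.0, and the code was tested on simulated data. The genes and lists were chosen with earlier results of these data known. Within a role, the text gives values for up to 4 called genes with the smallest F test p and the most highly counted gene, and for up to 3 called genes per pathway list. IRF3 and genes called at 12 h against 6 h were added after their values were seen. Alternatives for the pathway genes, and the fit of only 2 groups for 12 h against 6 h, were added after the data had been seen.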

Additional observations from a re-analysis of the deposited data

Results flagged for a closer look

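The change under Nutlin-3a differed between exposure times for 14 genes, by the limma test of 12 h against 6 h itself. The difference, as the log2 change at 12 h minus that at 6 h, was positive for OASL (1.12), TRIM22 (0.68), IFIT2 (0.63), IFIT1 (0.60), IRF2 (0.33), STAT2 (0.31), DDX58 (0.25) and MAVS (0.14). It was negative for PARP12 (−0.69), OAS3 (−0.67), TMEM173 (−0.61), IFITM1 (−0.51), TRIM21 (−0.34) and IFI16 (−0.16). Groups of 2 libraries are too small for a check of single libraries that stand apart.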

How the results depend on the processing

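Of 49 calls of these genes in the 4 comparisons, 23 held under every alternative run, 26 were lost under at least 1, and 5 under at least 10 of them, namely IRF2 at 12 h, EIF2AK2 at 6 h, and PARP12, B2M and IRF3 at 9 h. No call turned its direction. The genes that fell at 9 h numbered 3 in place of 5 with quantile normalization, DESeq2, the deposited tests, only the 2 groups compared or group weights, and 2 to 5 when libraries were left out in turn. Those that fell at 12 h numbered 3 in place of 5 with quantile normalization, DESeq2 or the deposited tests, and 2 to 7 when libraries were left out. Those that fell at 6 h numbered 4 in place of 7 with DESeq2 or the deposited tests, and 4 to 7 when libraries were left out. Those higher at 12 h than at 6 h numbered 4 in place of 8 with DESeq2 (which gave OASL no adjusted p), and 3 to 8 when libraries were left out. Those that rose numbered 5 to 10 at 6 h and 3 to 8 at 12 h when libraries were left out, in place of 6 at each time. Where a library left out leaves 1 in its group, that library is assumed to vary like the others. Whether libraries with the same replicate number belong together is not stated. Their deviations correlated at −0.18 to 0.12, which with 2 libraries per group cannot decide it. With the replicate block 6 genes fell at 6 h in place of 7, while the other counts were unchanged. No scaling shifted the median of all genes by more than 0.1. Of 58 calls of the 20 other genes named, 42 held under every alternative run. TAP1, BST2 and OAS2, with 0 to 4 reads in a library, were too low to test.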

Other observations

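Genes of the MHC region differed widely in level in all libraries. HLA-C had normalized counts of 3558 to 4571, HLA-B of 955 to 1162 and TAP2 of 34.6 to 52.8. TAP1, PSMB8, a subunit of the immunoproteasome, and HLA-E, a ligand of natural killer cell receptors, lay at 0 to 3.27, 0 to 3.84 and 0 to 4.57, at or near the floor in DMSO as well as in Nutlin-3a. How reads of this region were counted is not given, and whether that lowered these 3 values was not tested. The spread between the 2 libraries of a group was taken as the SD of the log2 difference over genes with a mean of at least 100. For the 28 such genes of the set it was 0.168 at 6 h, 0.104 at 9 h, 0.134 at 12 h and 0.164 in DMSO. Over all 10612 such genes it was 0.111, 0.100, 0.100 and 0.158. The set thus spread more widely than all genes at 6 and 12 h.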
